A study of Mus musculus with 4 samples.

Results

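Antigen presentation was followed through 8 of the 18767 genes listed for single aortic cells. They are the class I genes *B2m*, *H2-K1* and *H2-D1*, the class II genes *Cd74*, *H2-Aa*, *H2-Ab1* and *H2-Eb1*, and the costimulatory ligand *Icosl*, chosen by name and read in cells with more than 1200 detected genes. The cells were sorted as CD31+ CD45- TO-PRO-3- from enzymatically digested mouse aortas and profiled by SORT-seq, a plate method that puts a single cell in each well and counts unique molecular identifiers (UMIs) at the 3′ ends of transcripts. The data hold 4 libraries, of which 2 carry the label Jag1 ECKO and 2 the label Jag1 ECWT. Jag1 ECKO mice carried Jag1 fl/fl with a tamoxifen-inducible Cre driven by the endothelial *Cdh5* promoter, and the controls carried Jag1 fl/fl without Cre, so both had the floxed allele on a C57BL/6J background. The study's methods describe tamoxifen injections on consecutive days and young male mice, with one age range for all its mice and none per library; the groups were matched for age and sex. They also describe a high-fat diet, without saying whether the mice used for single cells received it. The genotypes require different animals for the different labels, and the study speaks of 4 experiments, but no source used here says whether the 2 libraries of a label came from separate animals, so p-values between labels measure the spread between libraries only.

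Class I molecules, a heavy chain such as H2-K1 or H2-D1 bound to beta-2 microglobulin, are made by nearly all nucleated cells and show peptides from inside the cell to CD8 T cells. Class II molecules, alpha and beta chains such as H2-Aa with H2-Ab1, show peptides from endocytosed material to CD4 T cells and are best known from dendritic cells, macrophages and B cells. Endothelial cells (EC) can also carry class II, above all after interferon gamma, which acts through the transactivator CIITA. CD74 is the invariant chain that escorts class II, and ICOSL is a ligand of the T cell receptor ICOS.

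*B2m* lies on chr2:122147686-122153083 and *Icosl* on chr10:78069302-78083913. The remaining H2 genes share chromosome 17, with *H2-K1* at chr17:33996017-34000347, *H2-Ab1* at chr17:34257689-34269419, *H2-Aa* at chr17:34282744-34287823, *H2-Eb1* at chr17:34305867-34316674 and *H2-D1* at chr17:35262730-35267499. Positions are from GENCODE on GRCm38. In the last 300 bases of each member's longest coding transcript, 0 of 226 windows of 75 bases were found in the transcripts of another gene, so reads of *H2-K1* and *H2-D1* could be told apart there.

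The class I and class II genes varied together between cells in the results that follow, and the 200 bases before 4 of their start sites are shown for that reason (RefSeq, GRCm38.p6, 5′ to 3′ on the gene's strand). Capitals mark matches on either strand to the Y box core GATTGG, the kappa B core GGGATTCCC and the interferon response element core TTTCNNTT. No matches overlapped.
H2-Aa: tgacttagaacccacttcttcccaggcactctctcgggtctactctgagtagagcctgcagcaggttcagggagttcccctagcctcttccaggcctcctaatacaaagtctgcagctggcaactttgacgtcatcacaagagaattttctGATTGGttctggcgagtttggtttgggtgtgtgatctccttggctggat
H2-Eb1: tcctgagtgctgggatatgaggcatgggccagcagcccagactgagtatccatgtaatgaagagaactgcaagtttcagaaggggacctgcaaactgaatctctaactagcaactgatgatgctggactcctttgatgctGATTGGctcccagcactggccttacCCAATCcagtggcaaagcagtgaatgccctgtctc
B2m: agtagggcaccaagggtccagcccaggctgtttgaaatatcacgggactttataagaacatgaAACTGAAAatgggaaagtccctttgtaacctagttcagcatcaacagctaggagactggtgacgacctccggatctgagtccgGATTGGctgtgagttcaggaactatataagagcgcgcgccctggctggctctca
H2-K1: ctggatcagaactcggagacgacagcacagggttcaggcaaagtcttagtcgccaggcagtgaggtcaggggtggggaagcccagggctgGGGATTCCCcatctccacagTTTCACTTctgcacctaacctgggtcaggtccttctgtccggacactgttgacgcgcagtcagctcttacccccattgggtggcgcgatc

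These windows are chr17:34287824-34288023 (minus strand) for *H2-Aa*, chr17:34305667-34305866 (plus strand) for *H2-Eb1*, chr2:122147487-122147686 (plus strand) for *B2m* and chr17:34000348-34000547 (minus strand) for *H2-K1*. GATTGG stood 49 bases before the start of *H2-Aa*, 54 before that of *B2m*, 60 and, on the opposite strand, 35 before that of *H2-Eb1*, 53 before that of *H2-D1* on the opposite strand and 146 before that of *Icosl*, with no match in the window of *H2-K1*. No match was recorded for *Cd74*, and no window of *H2-Ab1* was available, so the core is not shown for every class II gene. It was in 12.9% of 32851 promoter windows of the same length. The kappa B core was rare, in 0.213% of windows, and the interferon element core was in 17.0%. In *H2-K1* and *H2-D1*, before their RefSeq starts, the kappa B and interferon element cores stood in the same order and spacing, in stretches that differed at 1 of 30 bases.
H2-K1 stretch: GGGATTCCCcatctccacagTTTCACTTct
H2-D1 stretch: GGGATTCCCcatctcctcagTTTCACTTct
The stretches are chr17:34000428-34000457 (minus strand) and chr17:35262924-35262953 (plus strand). The *H2-D1* stretch lies 170 bases before the RefSeq start of the gene but inside the GENCODE gene given above, which starts further upstream. A match is a description of the letters only.

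Of 991 deposited cells, 824 had more than 1200 genes, 202 and 236 in the libraries labelled Jag1 ECKO 1 and 2 and 140 and 246 in those labelled Jag1 ECWT 1 and 2. Their median counts per cell ran from 4212 to 6518, and 278 of 355 well barcodes occurred in more than 1 library, as plates share their barcodes. *Jag1*, the gene the genotype targets, had 161 and 126 counts in the libraries labelled Jag1 ECKO and 28 and 39 in those labelled Jag1 ECWT, or 158 and 70.8 against 32.6 and 26.1 counts per 1000000 (CPM). *Jag1* was thus higher in the libraries labelled as lacking it. Whether these 3′ counts lie outside the deleted exons, and whether labels were exchanged, was not tested. The study describes checks of the deletion by qRT-PCR and en face staining, which are not tied to these libraries. Every direction between labels below is one between libraries as labelled. All 10 EC markers were detected, and *Pecam1* (CD31) had a count in 822 of the 824 cells. By summed markers 780 cells were EC and 44 held more fibroblast and smooth muscle than EC marker counts.

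Class I genes were among the most abundant transcripts of these cells, and class II genes were present in most cells at a lower level. Because each UMI stands for 1 transcript whatever its length, CPM can be compared between genes. *B2m* stood at 4049 and 4738 CPM in the libraries labelled Jag1 ECKO 1 and 2 and at 5214 and 3893 CPM in those labelled Jag1 ECWT 1 and 2. *H2-K1* was measured at 2980, 2641, 3368 and 2659 CPM in the same order of libraries. *H2-D1* was at 3370, 2149, 3193 and 2619 CPM. The 3 genes ranked between 12 and 38 among all genes in every library, and the ranges of *H2-K1* and *H2-D1* overlapped.

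Among the class II genes the invariant chain led. *Cd74* is the one class II member outside chromosome 17, at chr18:60803848-60812652. *Cd74* was at 736 and 1204 CPM in the libraries labelled Jag1 ECKO 1 and 2 and at 1515 and 687 CPM in those labelled Jag1 ECWT 1 and 2. *H2-Aa*, an alpha chain, was at 419, 554, 798 and 419 CPM in that order. The beta chain *H2-Ab1* was at 319, 454, 512 and 313 CPM, and the beta chain *H2-Eb1* at 293, 322, 435 and 227 CPM. The order *Cd74*, *H2-Aa*, *H2-Ab1*, *H2-Eb1* held in each of the 4 libraries, though the ranges of neighbouring genes overlapped between libraries. Over these 824 cells the highest and the lowest library carried the label Jag1 ECWT for all 4 genes, while in EC alone *H2-Ab1* was highest in the library labelled Jag1 ECKO 2, at 479 against 453 CPM in that labelled Jag1 ECWT 1.

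*Icosl* was the lowest member, with 58, 95, 78 and 82 counts, or 57.1, 53.4, 90.8 and 55.0 CPM. A count of it was found in 192 of 824 cells. Of the other costimulatory ligands in the list, *Lgals9* (galectin-9) averaged 400 ± 55.1 CPM and *Pvr* 70.6 ± 12.3 CPM (SD, n = 4 libraries), while *Cd80* had 9 counts and *Cd86* 1 count over all cells. Between them in the same list, *Cd274* averaged 29.5 ± 7.14 CPM and *Cd40* 21.7 ± 6.05 CPM.

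**Figure D1:**
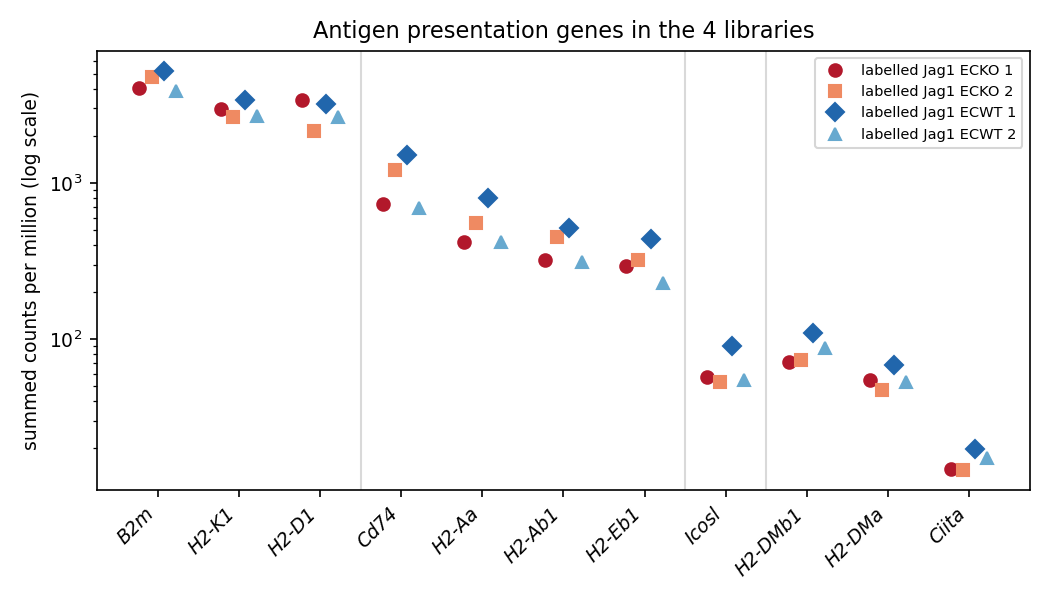
Summed CPM (log axis) of the 8 members and of *H2-DMb1*, *H2-DMa* and *Ciita* in each of the 4 libraries, 1 point a library. *B2m*, *H2-K1* and *H2-D1* lie above 2000 CPM in each library, the class II genes between 227 and 1515 CPM and *Icosl* under 100 CPM.

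Summed over members, class I was 5.88 and 3.76 times class II in the libraries labelled Jag1 ECKO 1 and 2 and 3.61 and 5.57 times in those labelled Jag1 ECWT 1 and 2, a mean of 4.71 ± 1.19 (SD, n = 4). The ratio followed class II, which was 1768, 2533, 3261 and 1646 CPM, more than class I, which was 10399, 9528, 11775 and 9170 CPM. After each cell was thinned to 2837 counts, which left out 82 shallower cells, the 10% of cells with the most held between 17.5% and 19.2% of class I counts and between 31.6% and 41.3% of class II counts. For the sparse *Icosl* the share was 75% to 85.7%. Such a share rises as counts fall, and class II counts were fewer, so no difference in evenness between the classes is read from it. Over all 824 cells, 5 had more class II than class I counts.

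**Figure D2:**
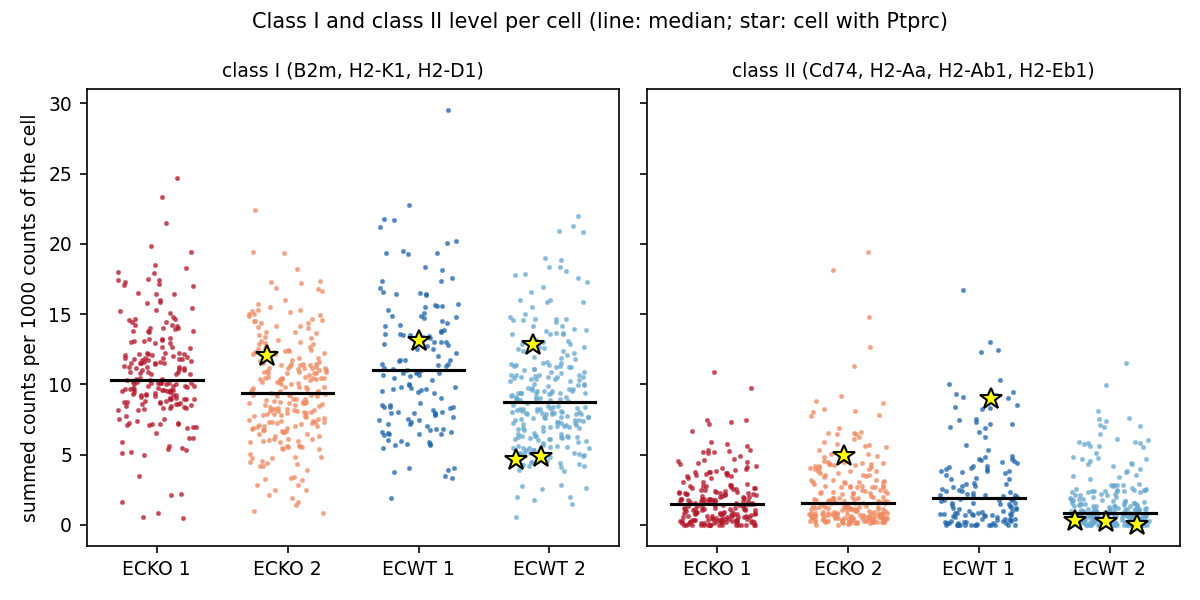
Summed class I (left) and class II (right) counts per 1000 counts of each cell, by library, 1 point a cell, with the median as a line and the 5 cells with a *Ptprc* count as stars. Class II medians lie between 850 and 1897 CPM with a tail upward, and class I medians between 8757 and 10999 CPM.

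At least 1 class II count was found in 185 of 202 and 234 of 236 cells of the libraries labelled Jag1 ECKO 1 and 2, and in 126 of 140 and 214 of 246 cells of those labelled Jag1 ECWT 1 and 2. These are 91.6% (95% exact binomial interval 86.9% to 95.02%), 99.2% (97.0% to 99.9%), 90% (83.8% to 94.4%) and 87.0% (82.1% to 90.9%), with intervals for counting error only. The Jag1 ECKO shares both exceeded the Jag1 ECWT shares, with an exact two-sided permutation p of 0.33, the smallest that 2 against 2 libraries can give. Thinned to equal depth, the shares were 86.1%, 90.6%, 85.0% and 81.0%. The class II level in CPM gave no such order, so no difference is read from the shares. All 4 class II genes were found together in 293 of 824 cells, 3 in 188, 2 in 174, 1 in 104 and none in 65. Cells with a class II count were deeper, with a median of 5401 counts against 3767.

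**Figure D3:**
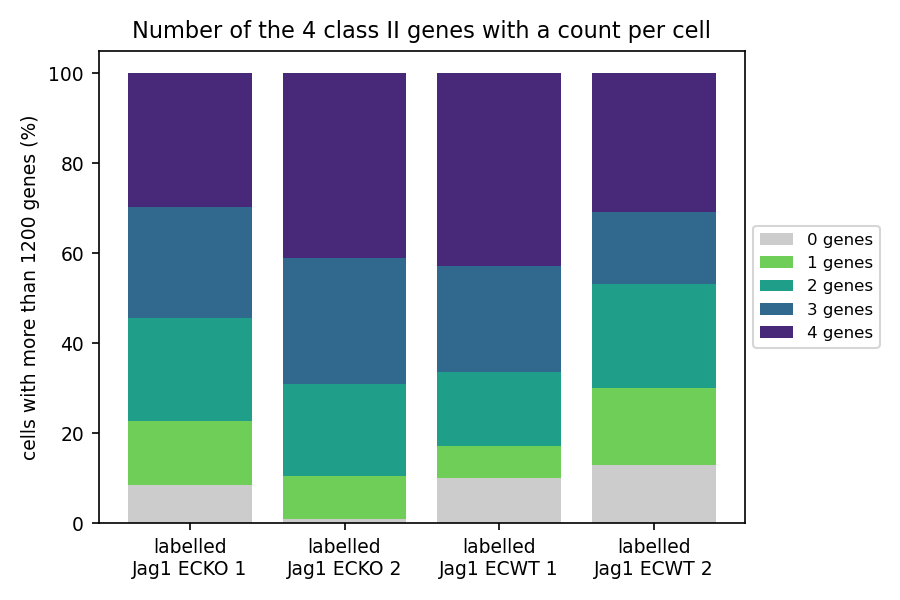
Share of cells (%) with a count in 0, 1, 2, 3 or all 4 class II genes, stacked by library. Cells with all 4 genes make up 29.7% and 41.1% in the libraries labelled Jag1 ECKO 1 and 2 and 42.9% and 30.9% in those labelled Jag1 ECWT 1 and 2.

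Few of the class II-bearing cells held *Ptprc*, which encodes CD45, the leukocyte antigen that the sort selected against. *Ptprc* had a count in 4 of 759 cells with class II, or 0.527% (95% exact interval 0.144% to 1.34%), and in 1 of 65 without. *Pecam1* had a count in 757 of those 759 cells. A sparse transcript can be missed in a cell, so these shares limit cells with a UMI and not cells that express the gene. Of the 5 *Ptprc* cells, the one in the library labelled Jag1 ECKO 2 had 70 class II and 194 EC marker counts, and the one in that labelled Jag1 ECWT 1 had 112 class II and 95 EC marker counts. The 3 in the library labelled Jag1 ECWT 2 had 1, 1 and 0 class II counts. None of the 5 had a count of another pan-leukocyte gene, and no cell had 3 or more genes of that list.

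The leukocyte genes listed in the data were low beside the 11561 class II counts of the 824 cells. The full lists held 8 pan-leukocyte, 12 macrophage, 8 dendritic cell, 6 B cell and 7 T or NK cell genes. Some were not among the 18767 genes, so the sums cover only part of each list. The 7 listed pan-leukocyte genes summed to 42 counts over 824 cells, from 3.94 to 15.1 CPM by library. The 9 macrophage genes summed to 95 counts, the 6 dendritic cell genes to 89, the 4 B cell genes to 59 and the 5 T or NK cell genes to 113, of which *Cd3d* gave 69. The highest gene of each other list was *Xcr1* of dendritic cells with 50 counts in 47 cells, *Cx3cr1* of macrophages with 39 in 36, *Cd22* of B cells with 30 in 30 and the pan-leukocyte *Rac2* with 17 in 17, while *Tyrobp* had 2 counts, *Fcer1g* 1 and *Cd68* 3. The part of such cells or of stray transcripts in the class II counts was not tested beyond the values that follow. The 10 EC markers were between 9471 and 11023 CPM. Without the 5 *Ptprc* cells, the mean class I to class II ratio was 4.72. A count in any of the 31 listed leukocyte genes was found in 274 cells, and without them 510 of 550 cells (92.7%) held class II, the ratio was 5.00 and class II lay between 1508 and 3123 CPM by library, a setting added after seeing the data.

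As a reference outside EC, 21 cells had fibroblast and smooth muscle marker counts at least 4 times their EC marker counts. In them class II summed to 56 counts, 255 CPM against 2262 CPM in EC, and class I was 2856 against 10243 CPM. The reference level was 11.3% of that in EC for class II and 27.9% for class I, beside 29.8% for *Pecam1*, 10.9% for *Vwf* and 12.6% for *Cdh5*. EC transcripts were thus present in these cells at similar shares, the cells were sorted for CD31, and their values are not levels of cells free of EC transcripts. By library, class II in the reference cells was at 135, 277, 0 and 568 CPM, from 8, 7, 3 and 3 cells, against 1870, 2666, 2999 and 1640 CPM in EC. A class II count was nevertheless found in 15 of these 21 deeper cells (median 7661 counts), so the share of cells with a UMI separated the sets less than the level did. The other 23 cells set aside had mixed markers and a class II level of 4488 CPM, and 253 of their counts came from 1 cell in the library labelled Jag1 ECWT 1.

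Between cells, members varied with others of their own class first. On log2(CPM + 50) centred within library, Pearson's r over 824 cells was 0.52 to 0.57 among class I genes, 0.39 to 0.56 among class II genes and 0.19 to 0.39 between the classes. Summed class I and summed class II correlated at 0.41 and 0.53 within the libraries labelled Jag1 ECKO 1 and 2 and at 0.52 and 0.47 within those labelled Jag1 ECWT 1 and 2. *Icosl* gave values between -0.05 and 0.01 with the other members, but at its low count a weak correlation says little. Cells share library and depth, and these values are descriptions.

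**Figure D4:**
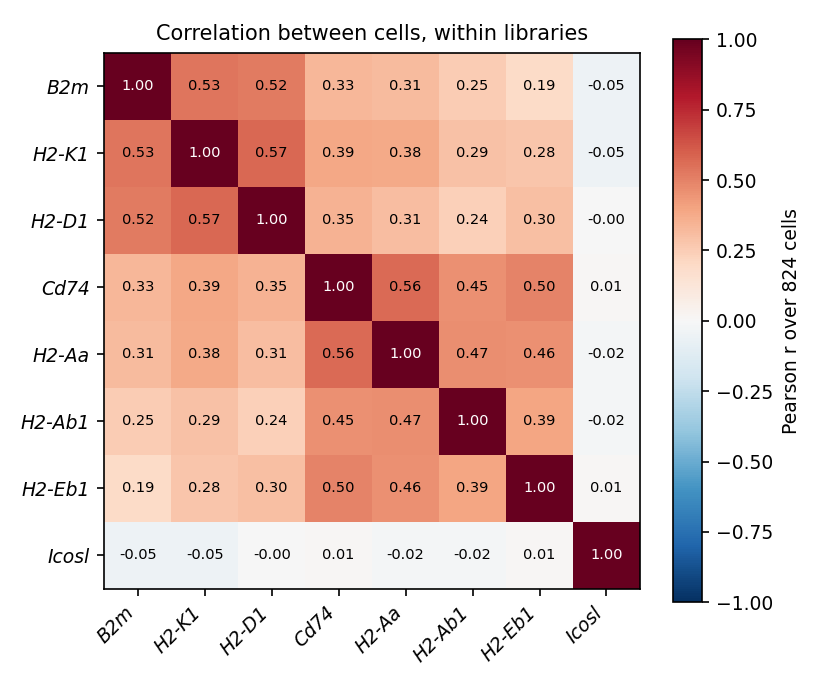
Pearson's r between the 8 members over 824 cells, on log2(CPM + 50) centred within library. Blocks of higher r cover the 3 class I genes and the 4 class II genes, with lower r between the blocks and values near 0 for *Icosl*.

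Among 6659 genes with counts in at least 10% of cells, those most like summed class II were *H2-DMb1* (r = 0.33) and *H2-DMa* (r = 0.33), the chains of the H2-DM molecule that loads peptide on class II, followed by *Adh1* (r = 0.28), *Sfrp1* (r = 0.27) and *Apoe* (r = 0.26). Those most like summed class I were *Pecam1* (r = 0.41), *Ly6e* (r = 0.36), *Tm4sf1* (r = 0.34), *Vwf* (r = 0.34) and *Apoe* (r = 0.33). The lowest for class I were the smooth muscle genes *Myh11* (r = -0.29) and *Smtn* (r = -0.27). The 824 cells include the 44 set aside by markers. In the 780 EC alone, a setting added after seeing the data, *Pecam1* and *Vwf* stood at 0.17 and 0.11 with class I and *Myh11* and *Smtn* at 0.03 and -0.08, and the genes most like class I were *Tm4sf1* (0.29), *Itm2b* (0.28) and *Apoe* (0.26). *H2-DMb1* (0.33) and *H2-DMa* (0.32) still led for class II, and r was 0.39 to 0.44 among class I genes, 0.37 to 0.54 among class II genes and 0.15 to 0.36 between the classes. Those most like *Icosl* over all 824 cells were *Klf4*, *Car8*, *Emp2*, *Adam15* and *Pdlim2*, at r of 0.21 or lower.

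To ask which genes go with class II, cells with a class II count were compared with the other cells of the same library by edgeR's quasi-likelihood test with Benjamini-Hochberg adjustment. The library labelled Jag1 ECKO 2, with 2 cells lacking class II, was left out, and the class II genes chose the cells and are not counted. Of 6658 genes, 0 were higher (0%), with 184 at an unadjusted p under 0.05 and 0 by DESeq2, and 10 were lower (0.15%). The adjustment ran over 6662 genes, the 4 class II genes included, which makes the adjusted p of the others smaller than without them. *Gucy1b3* (adjusted p = 0.0373) was the nearest of the 10 to 0.05, and its call may rest on this. Genes could pass the low-count filter through the few cells without class II in which they were high, as *Nog* with 8 counts in cells with class II and 45 in cells without, while *Ciita*, with 58 and 0, was filtered out, so nothing is read from the balance of directions. No gene was higher by library totals without TMM, without the highest class II cell of each library or with any library left out. With more than 1500 genes required, or without the *Ptprc* cells, 1 gene was higher, and with no low-count filter 9 were, *H2-K1* (adjusted p = 0.00147) and *H2-DMb1* (7.58e-04) among them. In all deposited cells and in thinned cells 5 each were higher, with counts in at least 2 class II genes 7 and with a *Cd74* count 13, and these 4 settings also took in the library labelled Jag1 ECKO 2. *H2-K1* passed in the last 3 of them (adjusted p from 0.00385 to 0.0058). *H2-K1* was 0.81 ± 0.19 higher on the log2 scale (SE, adjusted p = 0.113), *H2-D1* 0.65 ± 0.18 (adjusted p = 0.293) and *B2m* 0.44 ± 0.17 (adjusted p = 0.773), each higher in 3 of 3 libraries but not past the threshold. *Icosl* differed by -0.21 ± 0.41 (adjusted p = 0.993).

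The 10 lower genes included *Nog*, a secreted BMP antagonist (log2 difference -5.73, adjusted p = 2.32e-05), the taurine transporter *Slc6a6*, *Hapln1*, *Nr4a2*, *Igfbp5*, *Vcan*, *Gucy1b3* and the chemokine *Cxcl12* (-1.62, adjusted p = 0.00666). *Col1a1* and *Lum*, 2 of the 6 fibroblast markers tested, were also lower. Over all 4 libraries, the one left out of the test included, 9 of the 65 cells without class II were among those set aside by markers, against 35 of 759 with class II. All 6 fibroblast and all 6 smooth muscle markers tested had values below 0, with medians of -1.09 and -0.96, and 2 of 17 dissociation response genes had values above 0 (median -0.53), against 0.03 over all genes. In EC alone 10 genes passed, 6 of them shared with the 10 above, namely *Cxcl12*, *Hapln1*, *Nog*, *Nr4a2*, *Slc6a6* and *Vcan*. *Igfbp5* did not pass there (adjusted p = 0.109), and *Col1a1*, *Lum* and *Gucy1b3* were too low to be tested. Of those 10 genes 2 were higher, *H2-DMb1* at 2.90 (adjusted p = 0.0358) and *Apoe* at 0.80 (adjusted p = 0.0268), while *H2-K1* was at 0.62, *H2-D1* at 0.46 and *B2m* at 0.33 without passing. The class II genes were part of that adjustment too. *H2-DMb1* had the largest adjusted p of the 10, and its call may rest on them. *Lum* and *Igfbp5* were lower in only 2 of 3 libraries. Without the library labelled Jag1 ECKO 1 5 genes passed, and without Jag1 ECWT 2 27 did.

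Since nearly all cells held class II, a graded comparison was added after seeing the data. EC thinned to 2837 counts were split within each library into 3 bins of near equal size by class II count. The highest bin (class II-high EC) was compared with the lowest (class II-low EC) over all 4 libraries, with 52, 69, 40 and 70 cells a side in the order above. Class II-high EC began at 7, 7, 11 and 4 class II counts, and class II-low EC ended at 2, 2, 2 and 1. Class II genes fixed the split, and no test of them is read. They were among the 2983 genes of the adjustment, which makes the adjusted p of the other genes smaller than without them. Of 2979 other genes, 16 were higher (0.537%) and 14 lower (0.47%). Here too genes could pass the low-count filter through the side in which they were high. *H2-DMb1* had 103 counts in class II-high and 15 in class II-low EC, and *Sparcl1* had 5 and 87. Nothing is read from the numbers of genes in each direction. Without the library labelled Jag1 ECKO 2 15 genes passed in all, and by DESeq2 12 did, among them 8 of the 16 higher and 3 of the 14 lower genes. These were *H2-K1*, *H2-D1*, *B2m*, *H2-DMa*, *H2-DMb1*, *Adh1*, *Apoe* and *Sfrp1* among the higher, and *Sparcl1*, *Igf2* and *Cd36* among the lower.

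All 3 class I genes were higher in class II-high EC. *H2-K1* was at 3850, 3591, 4239 and 3510 CPM in class II-high and 2888, 2023, 2238 and 2120 CPM in class II-low EC of the libraries labelled Jag1 ECKO 1, ECKO 2, ECWT 1 and ECWT 2. The sets did not overlap, and the log2 difference was 0.71 ± 0.10 (SE, adjusted p = 4.99e-05). *H2-D1* differed by 0.51 ± 0.10 (adjusted p = 0.00361) and *B2m* by 0.44 ± 0.11 (adjusted p = 0.0309), each higher in 4 of 4 libraries. Both lost the call without the library labelled Jag1 ECKO 2 (*H2-D1* adjusted p = 0.103, *B2m* 0.242) or Jag1 ECWT 2 (0.0852 and 0.190). *Icosl* had 44 counts in class II-high and 52 in class II-low EC, a log2 difference of -0.25 ± 0.33 (adjusted p = 0.916).

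Of 16 class II pathway genes in the data, 6 were high enough to be tested. Of these, 2 rose and 0 fell, with a median log2 difference of 0.18 against -0.01 over all genes. The 2 that rose could pass the low-count filter through class II-high EC, so this share is not read as a result. *H2-DMb1* was at 142, 123, 203 and 176 CPM in class II-high and 27.1, 15.3, 26.4 and 25.2 CPM in class II-low EC, a log2 difference of 2.73 ± 0.33 (adjusted p = 1.85e-06). *H2-DMa* had 71 against 9 counts and differed by 2.89 ± 0.45 (adjusted p = 1.17e-04). The cathepsins *Ctsb* and *Ctsl*, proteases of the endosome and lysosome, differed by 0.01 ± 0.14 and 0.20 ± 0.18 and did not pass. *Ciita*, the class II transactivator, was too low to be tested, with 17 counts in class II-high and 1 in class II-low EC.

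None of the 13 class I pathway genes tested passed, though all 13 had values above 0 and the median was 0.32. The peptide-loading chaperone *Tapbp* differed by 0.44 ± 0.13 (adjusted p = 0.140) and *Calr* by 0.18 ± 0.16. Of 20 interferon response genes, 1 rose and 0 fell, with a median of 0.35. That gene was *Iigp1*, an interferon-inducible GTPase, at 0.78 ± 0.15 (adjusted p = 0.00217). It lost the call without the library labelled Jag1 ECKO 2 (adjusted p = 0.0699) and by DESeq2 (0.259). The guanylate-binding protein gene *Gbp7* differed by 0.62 ± 0.16 (adjusted p = 0.0618).

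Outside the pathway lists, *Adh1* (0.88 ± 0.12), *Apoe*, the lipid carrier (0.55 ± 0.10), *Smoc1*, *Sfrp1*, a secreted Wnt modulator, *Emb* and the proteoglycan *Dcn* (0.77 ± 0.16) also rose, each in 4 of 4 libraries. By DESeq2 *Smoc1* (adjusted p = 0.187), *Emb* (0.259) and *Dcn* (0.451) did not pass. *Dcn* is 1 of the 3 fibroblast markers tested, of which *Col1a2* differed by 0.05 ± 0.17 and *Col3a1* by -0.66 ± 0.28 without passing. Of 7 capillary or lipid-handling markers only 2 were high enough to be tested, and both fell. Both had more counts in class II-low EC, through which they could pass the low-count filter. *Fabp4*, a fatty acid carrier, was at 447, 46.0, 0 and 35.2 CPM in class II-high and 827, 480, 317 and 332 CPM in class II-low EC (log2 difference -2.13 ± 0.30, adjusted p = 2.38e-05), and most of its counts in class II-high EC came from the library labelled Jag1 ECKO 1, without which the difference was -3.61. By DESeq2 *Fabp4* did not pass (adjusted p = 0.109). *Cd36*, a fatty acid receptor, fell by 2.46 on the log2 scale (adjusted p = 1.20e-04). Without the library labelled Jag1 ECKO 1 its log2 difference was -4.25.

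*Sparcl1* fell by 4.002, *Igf2* by 1.95, *Gpr56* by 1.77, *Mgll* by 1.55 and the tight junction gene *Cldn5* by 0.87 on the log2 scale. *Stmn2* fell by 1.16, *Ptprg* fell by 1.17 and *Igfbp4* fell by 1.01. Of these 8 only *Sparcl1* and *Igf2* passed by DESeq2 (adjusted p = 2.55e-04 and 5.82e-05), and the others had adjusted p from 0.0768 (*Cldn5*) to 0.968 (*Ptprg*). *Cldn5* is also 1 of the 9 EC markers tested, of which 1 fell and 0 rose, with a median of 0.03. *Pecam1*, *Vwf* and *Cdh5* differed by 0.12 ± 0.10, 0.03 ± 0.11 and 0.11 ± 0.15 and did not pass, and *Emcn* differed by -0.67 ± 0.24 (adjusted p = 0.355). Of the chemokine genes, *Cxcl12* differed by -0.06 ± 0.29 and *Cxcl1* was too low to be tested, with 31 counts in class II-high and 10 in class II-low EC. *Plxdc2* differed by 0.59 ± 0.25 (adjusted p = 0.534). Median depth before thinning was 5797 counts in class II-high and 5634 in class II-low EC. Of 12 dissociation response genes tested, 1 had a value above 0 and none passed, with a median of -0.27 against -0.01 over all genes, and their part in the differences by class II count was not tested. *Ptprc* cells numbered 2 of 231 and 3 of 231. Without the 5 *Ptprc* cells, 33 genes passed.

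**Figure D5:**
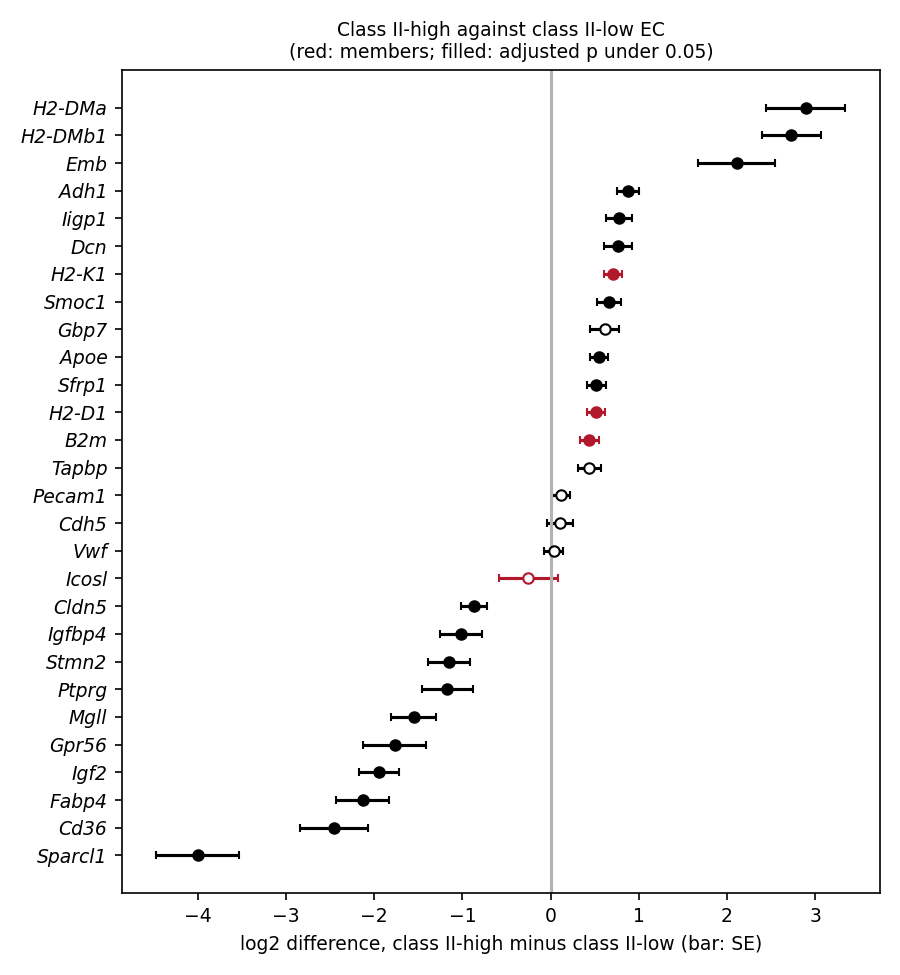
Log2 difference (point) and SE (bar) between class II-high and class II-low EC over 4 libraries, for named genes, with members in red and genes past an adjusted p of 0.05 filled. *H2-DMa* and *H2-DMb1* lie furthest right, the class I genes between 0.44 and 0.71, *Icosl* across 0 and *Sparcl1* furthest left.

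Between labels no gene of 9730 passed edgeR's quasi-likelihood test (0%), with 465 at an unadjusted p under 0.05 and 0 calls by DESeq2. The members' log2 differences, Jag1 ECKO minus Jag1 ECWT, were -0.02 ± 0.21 for *B2m*, -0.08 ± 0.18 for *H2-K1*, -0.06 ± 0.22 for *H2-D1*, -0.13 ± 0.36 for *Cd74*, -0.28 ± 0.29 for *H2-Aa*, -0.05 ± 0.27 for *H2-Ab1*, -0.06 ± 0.27 for *H2-Eb1* and -0.35 ± 0.26 for *Icosl* (SE, n = 2 libraries a label, edgeR adjusted p from 0.901 to 0.991). For each member the libraries of the labels overlapped. *Ciita*, *H2-DMb1* and *Ctsl*, lower in both libraries labelled Jag1 ECKO, and *Ctsb*, higher there, did not overlap, and none of them passed. With 2 libraries a label, overlap or its absence says little. In EC alone the sign turned for all class I genes and for *Cd74*, *H2-Ab1* and *H2-Eb1*, at values up to 0.14.

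*Cd74* passed only when the library labelled Jag1 ECKO 2 was left out (-0.59, adjusted p = 0.0317), a fit in which the lone library of that label is taken to vary like the others. Without that library 417 genes passed and without Jag1 ECKO 1 196 did. *Jag1* itself differed by 1.96 ± 0.37 (adjusted p = 0.428). It passed in edgeR with no low-count filter (1.97, adjusted p = 1.34e-09) but not by DESeq2 (1.99, adjusted p = 0.0824). With a library left out its difference ran from 1.36 to 2.42. All 8 smooth muscle markers had values above 0 (median 1.68), as had 4 of 5 capillary or lipid-handling markers (median 1.08), 16 of 18 dissociation response genes (median 0.44) and 6 of 8 fibroblast markers (median 0.28). Their part in the members' values was not tested. None of 19 class I pathway, 11 class II pathway, 4 costimulation and 28 interferon response genes passed, with medians of 0.05, -0.08, -0.10 and 0.07 against 0.00 over all genes. Changes in cell makeup and in RNA per cell cannot be told apart in these sums.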

How the data were processed

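The authors sorted single cells into 384-well plates, made SORT-seq libraries, aligned reads to GRCm38 with STAR (the submitters' processing notes also name Seurat 3.1) and deposited estimated counts per gene and cell, UMI numbers corrected for chance repeats of a UMI and not normalized. The counting tool is not given in the sources used here. Estimated counts were rounded to whole numbers, and cells with more than 1200 genes were kept. Counts were summed per library and tested with edgeR 4.0.16 in R 4.3.3 (TMM, filterByExpr, quasi-likelihood test, Benjamini-Hochberg adjustment), with library as a block where cells of a library were compared with each other. The adjustment took in every gene tested, and in the comparisons by class II count also the class II genes themselves. The SE given with edgeR values is the absolute log2 difference divided by the square root of the F statistic, as the test itself gives no SE. DESeq2 1.42.0 was an alternative. The steps were tested on simulated data. For equal depth, cells were thinned to 2837 counts, the 10th percentile. No doublet caller was run. Libraries differed beyond sampling noise (chi-square over degrees of freedom of 2.91 or more for each pair).

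Members and gene lists were chosen with earlier results of these data known. Genes named are the members, *Ptprc*, *Ciita*, *Jag1*, *Cxcl1*, *Cxcl12*, *Plxdc2*, list genes past an adjusted p of 0.05 or else the highest of the pathway lists, the 10 smallest p per direction in the comparisons by class II, and the genes most correlated with the members; *Tyrobp*, *Fcer1g*, *Cd68*, *Cd3d*, *Xcr1*, *Cx3cr1*, *Cd22*, *Rac2*, *Myh11*, *Smtn*, *Itm2b*, *Cd80*, *Cd86*, *Gbp7*, *Emcn*, *Col1a2*, *Col3a1*, *Vwf*, *Cdh5* and *Pecam1* were named after their values were seen. The same holds for *Cd274* and *Cd40*. Alternatives changed the cells, depth, class II threshold, scaling, filter and tool, and left out each library in turn. Promoter windows are from RefSeq on GRCm38.p6.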

Additional observations from a re-analysis of the deposited data

How the results depend on the processing

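No paired analysis was possible because replicate numbers only name the libraries. Between labels, the count of genes past the threshold went from 0 to 127 with no low-count filter and ran from 0 to 417 when a library was left out. *Icosl* kept its sign in 14 of 14 alternatives there, but the other members did not: in EC alone *B2m* was 0.052, *H2-K1* 0.014, *H2-D1* 0.029, *Cd74* 0.032, *H2-Ab1* 0.14 and *H2-Eb1* 0.068, in all deposited cells *H2-Ab1* was 0.0034 and *H2-Eb1* 0.014, and without the highest class II cell of each library *H2-Ab1* was 0.039. With a library left out, *B2m* ran from -0.19 to 0.16, *H2-K1* from -0.20 to 0.056, *H2-D1* from -0.36 to 0.19, *Cd74* from -0.59 to 0.49, *H2-Aa* from -0.64 to 0.20, *H2-Ab1* from -0.38 to 0.29, *H2-Eb1* from -0.43 to 0.42 and *Icosl* from -0.66 to -0.015, the last without the library labelled Jag1 ECWT 1. For cells with class II, 10 genes became 24 in all deposited cells, 35 with no filter, 16 in thinned cells, 20 with counts required in at least 2 class II genes, 39 with a *Cd74* count required and 5 to 27 with a library left out. *Icosl* there was 0.061 in thinned cells and ran from -0.46 to 0.22 with a library left out. The settings with all deposited cells, thinned cells, at least 2 class II genes or a *Cd74* count also took in the library labelled Jag1 ECKO 2, so they changed 2 things at once. *H2-K1* and *H2-D1* passed under 4 of 14 alternatives each, *B2m* under 2 and *H2-DMb1* under 7. The class II genes were part of the adjustment there too, which makes the adjusted p of other genes smaller. For class II-high against class II-low EC, a comparison added after seeing the data together with their alternatives and the recovered UMI numbers, 30 genes became 12 by DESeq2, 52 with no filter and 15 to 38 with a library left out. The cause of these shifts was not tested. The difference of label means in the share of class II-bearing cells kept its direction in 12 of 12 alternatives, but the labels overlapped with counts in at least 2 class II genes (77.2% and 89.4% for Jag1 ECKO, 82.9% and 69.9% for Jag1 ECWT) and with a *Cd74* count (71.3% and 81.8%, 75% and 61.0%). The class I to class II ratio stayed within 1 SD in 11 of 11, from 4.31 to 5.07. Low counts limit what can be said of *Icosl*, *Ciita* and *Ptprc*.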
